A study of Mus musculus with 20 samples.

Results

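The hepatic drug and bile transporters examined here are the ATP-binding cassette genes of the Abcb, Abcc and Abcg families and the solute carrier genes of the Slco, Slc22a and Slc10a families. A row of the deposited count table belonged to the set when its GENCODE M21 symbol began with 1 of these prefixes, it was not a pseudogene and its counts over all libraries came to at least 10. These conditions gave 60 genes of the 15522 that passed the same count minimum: 20 of Slc22a, 9 each of Abcb, Abcc and Slco, 7 of Slc10a and 6 of Abcg. Another 12 genes with these prefixes had fewer than 10 counts and were not tested. The rule uses symbols and count totals alone. Of the 60, 46 had a mean of at least 1 CPM (counts scaled to the TMM-normalized library size) over the libraries and 14 were below it.

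These proteins carry bile salts, drugs, hormones and organic ions through the hepatocyte. Sinusoidal carriers bring them in from the blood, canalicular pumps send bile salts, phospholipid, sterols and conjugates into bile, and basolateral pumps return them to the blood. Nuclear receptors and the aryl hydrocarbon receptor (AhR), the receptor of dioxin-like compounds, regulate many of them. Polychlorinated biphenyls (PCBs) include congeners that activate AhR and others that do not.

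Liver RNA was from 20 male C57BL/6J mice, 5 per group, all on a high-fat diet (HFD) with 42% of the calories as fat, so that no group ate a control diet. HFD control mice received corn oil, HFD + Aroclor mice Aroclor 1260 (a commercial mixture of mostly non-dioxin-like PCBs) at 20 mg/kg, HFD + PCB 126 mice the dioxin-like congener PCB 126 at 20 µg/kg, and HFD + Aroclor + PCB 126 mice (the combined exposure) both. The dose was a single oral gavage at 10 weeks of age, and livers were taken 10 weeks later according to the methods, after a fast of about 6 h. The labels give 12 weeks, and the methods give 12 weeks as the total time on HFD. Counts are from whole liver, in which fewer cells of a type and less RNA per cell cannot be told apart.

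Total counts ranged from 21836506 to 36854887 per library. HFD control replicate 4 and combined exposure replicate 4 carried adrenal transcripts: 12 of 12 adrenal markers, a list written after the values were seen, were higher in both than in any other library, and their summed level was 3085 and 2095 CPM against 1.28 to 4.12 CPM in the other 18. HFD control replicate 4 also carried skeletal muscle transcripts, with 8 of 8 markers (Acta1, Ckm, Myh1, Myh4, Mylpf, Tnnt3, Tnnc2 and Pvalb, also listed after the values were seen) higher than in any other library and a summed level of 77.3 CPM against 0.385 to 1.55 CPM in the other 19. Their part in the results was not tested, and the fits without the adrenal-marked libraries leave this library out too. In each library, the deviation of log2 CPM from the gene's mean over the 20 libraries was set against the GC content of the gene's transcripts. The slope for 10 percentage points of GC content, which is thus relative to the other libraries, ran from 0.0040 to 0.50 in HFD control and from −0.11 to 0.15 in HFD + Aroclor. It ran from −0.10 to 0.40 in HFD + PCB 126 and from −0.67 to −0.13 in the combined exposure. The slopes of HFD control and of the combined exposure did not overlap. GC-corrected values, from which the trend of each library with GC content was taken out, are therefore given beside the uncorrected ones, as are values without the 2 adrenal-marked libraries where they change a call. Adjusted p values are those of edgeR's quasi-likelihood test after the Benjamini-Hochberg procedure across all tested genes, with 0.05 as the threshold. Where no other group is named, a log2FC has HFD control as its base. The comparisons with HFD control share the same 5 control mice.

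Levels between genes were compared per length, as FPKM, the CPM divided by the exon length of the gene in kilobases. In HFD control livers, sinusoidal carriers were among the highest: Slco1b2, the liver organic anion carrier, at 321 ± 72.8 FPKM (SD, n = 5), and Slc10a1, the sodium-dependent bile salt carrier, at 293 ± 38.2 FPKM. The ranges of Slco1b2 and Slc10a1 overlapped. The sterol half-transporter Abcg5 (98.0 ± 29.5 FPKM) and the bile salt export pump Abcb11 (81.3 ± 9.61 FPKM) were the highest of the canalicular exporters. Abcc3 was at 55.7 ± 6.73 FPKM and Abcc6 at 20.4 ± 4.32 FPKM on the basolateral side. The other basolateral pumps, Abcc4 (0.423 ± 0.131 FPKM) and Abcc1 (0.190 ± 0.0629 FPKM), and the P-glycoprotein gene Abcb1a (0.646 ± 0.260 FPKM) were low. Of the transporters of mitochondria and lysosomes, Abcb6 was at 20.9 ± 3.21 FPKM. All 5 hepatocyte markers (Alb, Ttr, Apoa1, Cyp2e1 and Cps1) were measured in every library, with a summed level of 83182 to 118228 CPM over the 20 libraries.

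**Figure D1:**
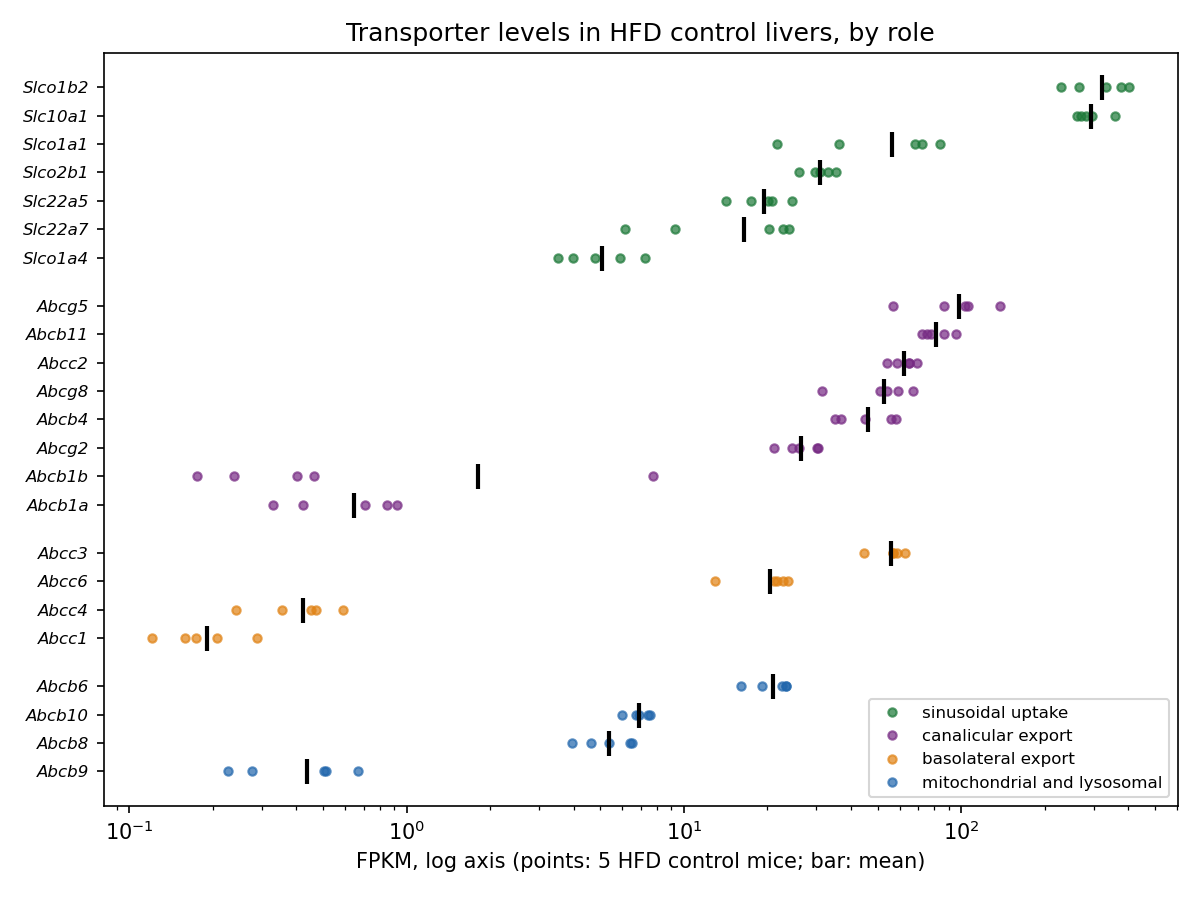
FPKM of 23 transporters grouped by role, with a point for each of the 5 HFD control mice and a bar for the mean, on a log axis. Slco1b2 and Slc10a1 lie together at the top of the first role, with means of 321 and 293 FPKM, and 1 mouse lies apart for Abcb1b.

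With Aroclor alone, 0 of the 60 transporters passed the threshold in edgeR, as did 0% of all genes tested, and 11 had an unadjusted p under 0.05. DESeq2 also called 0, against 1.2% of all genes to which it gave an adjusted p, and it gave none to 15 of the 60. With PCB 126 alone, 0 of 60 passed in edgeR against 0.116% of all genes, and 12 had an unadjusted p under 0.05. DESeq2 called 1, Abcb11, against 2.53%, and gave no adjusted p to 12 of the 60. The interaction term, for which the log2FC of both single exposures are added and set against that of the combined exposure, gave 0 of 60 in edgeR against 0% of all genes, with 10 transporters at an unadjusted p under 0.05 and 0 called by DESeq2, against 0.00655%. For an unadjusted p under 0.05, here and below, the share over all genes is not given. No excess among the transporters can be read from these counts.

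With the combined exposure, 18 of the 60 transporters passed, against 32.8% of all genes tested. DESeq2 called 21, against 42.5% of all genes to which it gave an adjusted p, and it gave none to 9 of the 60. Of the 18, 11 were higher (15.8% of all genes were) and 7 were lower (17% of all genes were). These shares also stand beside the uncorrected counts by role and by list given below for this comparison. The median log2FC was 0.082 over the 60 transporters and −0.00096 over all genes. The values of the 5 combined and the 5 control mice did not overlap for 4 transporters, all higher and Abcb1a, Abcc2 and Abcg2 among them, against 18.8% of all genes in either direction. Without the 2 adrenal-marked libraries, 16 of the 58 transporters still tested passed, against 30.4% of all genes.

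Transcript GC content separated the 2 directions. The 11 transporters that were higher had a GC content of 37.5% to 48.6% and the 7 that were lower had 55.3% to 59.0%. Over the 46 transporters with a mean of at least 1 CPM, log2FC and GC content had a Pearson's r of −0.70 and a Spearman's rho of −0.74, a description across genes that share the same 10 libraries. Over all 11341 genes at this level r was −0.75. After GC correction, 5 of the 60 transporters passed, against 9.14% of all genes: Abcb1a, Slc22a4 and Abcb10 were higher and Abcb11 and Abcb4 were lower. Of the 18 transporters called without the correction, 1 (Abcb1a) was called in both fits, and 3 (Slco1b2, Abcg2 and Slc22a30) turned in sign. With GC correction and without the adrenal-marked libraries, 1 of 58 passed, Abcb11, against 4.72% of all genes. The part of library GC content in these differences was not tested further, and since the slopes of the 2 groups do not overlap, it cannot be told apart from the exposure.

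**Figure D2:**
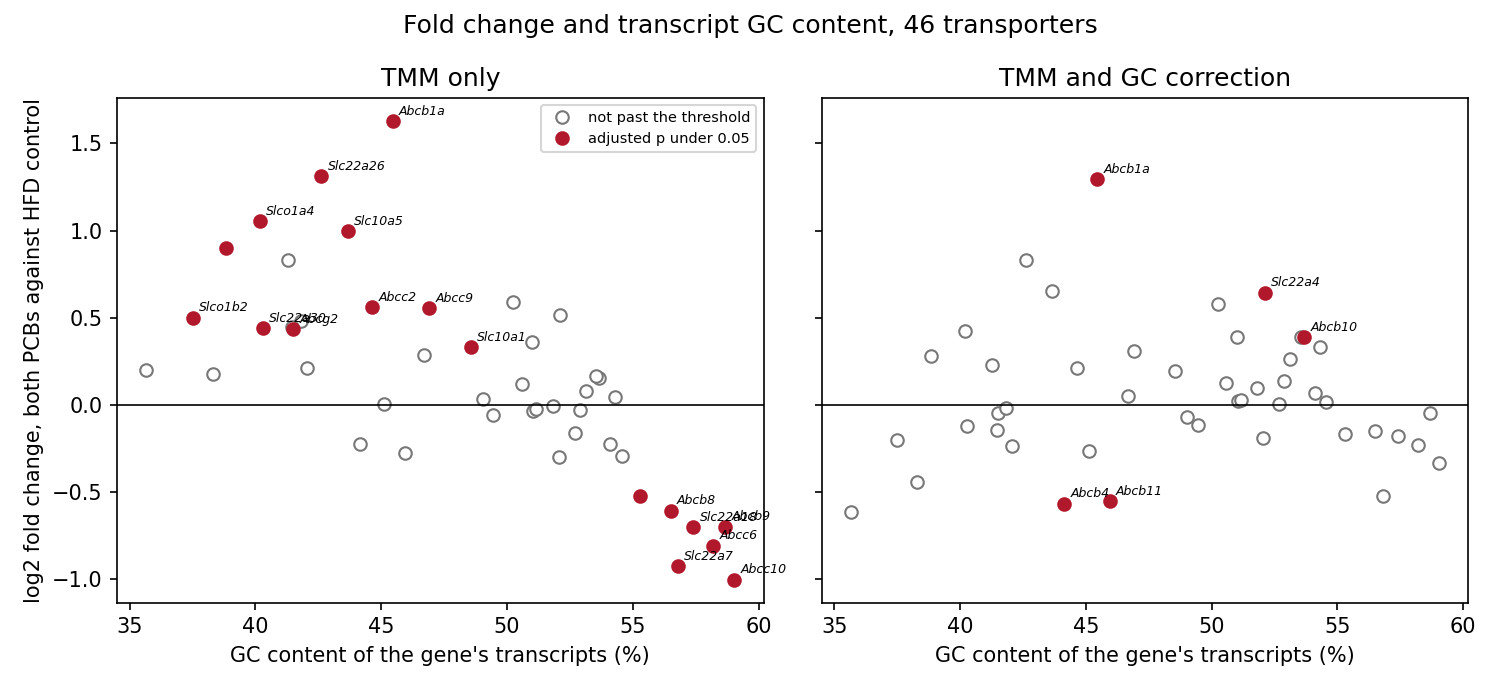
Log2FC of the combined exposure against HFD control (vertical axis) by transcript GC content in percent (horizontal axis) for the 46 transporters with a mean of at least 1 CPM, with TMM normalization only on the left and with GC correction on the right. Filled points passed an adjusted p of 0.05: 18 on the left, which lie along a falling band, and 5 on the right.

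Of 7 sinusoidal uptake carriers, 3 rose and 1 fell with the combined exposure, where 32.8% of all genes were called. The median log2FC of the 7 was 0.18. Slco1a4, a carrier of bile salts, steroid conjugates and cardiac glycosides (ENSMUSG00000030237; chromosome 6, 141805440 to 141856199, minus strand, GRCm38), was counted at 46.4, 37.7, 25.6, 22.6 and 30.7 CPM in the 5 HFD control mice and at 74.5, 55.9, 29.6, 41.4 and 35.5 CPM with Aroclor. It was at 37.2, 47.3, 49.2, 41.7 and 54.0 CPM with PCB 126 and at 87.5, 57.5, 29.6, 95.9 and 68.6 CPM with the combined exposure. Of the combined mice, 4 were above every control mouse and replicate 3 lay within the control range. The log2FC was 1.05 (SE 0.27, adjusted p = 0.00652), and all 10 fits that left out 1 mouse kept the call, but after GC correction it was 0.42 (adjusted p = 0.393). Slco1b2 rose to 2240.2 ± 241 CPM from 1582 ± 359 CPM (SD, n = 5 each), a log2FC of 0.50 (SE 0.16, adjusted p = 0.0200). The call for Slco1b2 was lost without HFD control replicates 1 or 2 or combined exposure replicate 2 (log2FC 0.40 to 0.45, adjusted p = 0.0508 to 0.0689), and its sign turned with GC correction to −0.20 (adjusted p = 0.259).

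Slc10a1 was at 650.3, 621, 786, 596 and 573 CPM in HFD control against 811, 915, 712, 788 and 836 CPM with the combined exposure. These ranges overlapped, since HFD control replicate 3 lay above combined exposure replicate 3. The log2FC of 0.33 (SE 0.11, adjusted p = 0.0305) was the smallest of the 18 called. It did not pass without HFD control replicates 1, 2, 4 or 5 or combined exposure replicates 2, 4 or 5 (log2FC 0.29 to 0.34, adjusted p = 0.0521 to 0.0865), nor without both adrenal-marked libraries (log2FC 0.30, adjusted p = 0.0984), nor after GC correction (log2FC 0.19, adjusted p = 0.323).

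Slc22a7, an organic anion carrier, fell. It was at 12.9, 19.5, 42.4, 50.05 and 47.9 CPM in HFD control, 16.2, 18.4, 33.0, 22.4 and 15.8 CPM with Aroclor, 32.0, 29.6, 47.7, 32.2 and 38.4 CPM with PCB 126 and 16.6, 26.2, 24.6, 9.23 and 14.3 CPM with the combined exposure. The control mice thus fell into 2 low and 3 high values, and the combined mice overlapped the low ones. The log2FC of Slc22a7 was −0.92 (SE 0.33, adjusted p = 0.0363). It did not pass without HFD control replicates 3, 4 or 5 or combined exposure replicates 1, 4 or 5 (log2FC −0.89 to −0.75, adjusted p = 0.0669 to 0.0919), without both adrenal-marked libraries (log2FC −0.61, adjusted p = 0.173) or after GC correction (log2FC −0.52, adjusted p = 0.342).

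The other 3 uptake carriers did not pass. Slco1a1, a male-predominant organic anion carrier, spread widely within groups, from 114 to 441 CPM in HFD control and from 227 to 575 CPM with the combined exposure, with a log2FC of 0.18 (SE 0.37, adjusted p = 0.761). Slco2b1 had a log2FC of −0.031 (adjusted p = 0.824) and the carnitine carrier Slc22a5 one of 0.12 (adjusted p = 0.516). After GC correction 0 of the 7 carriers passed in edgeR and 0 had an unadjusted p under 0.05.

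The sequence around the RefSeq start of Slco1a4 is shown because it had the largest fold change of the uptake carriers (GRCm38.p6, chr6:141856171-141856470, minus strand, 250 bases before to 50 after the start). It was searched on both strands for GCGTG (the core of the dioxin response element), TGACNNNGC (the core of the antioxidant response element) and AGGTCA (a nuclear receptor half-site), and none of these letter runs was in the window, so that it has no capitals.
Slco1a4: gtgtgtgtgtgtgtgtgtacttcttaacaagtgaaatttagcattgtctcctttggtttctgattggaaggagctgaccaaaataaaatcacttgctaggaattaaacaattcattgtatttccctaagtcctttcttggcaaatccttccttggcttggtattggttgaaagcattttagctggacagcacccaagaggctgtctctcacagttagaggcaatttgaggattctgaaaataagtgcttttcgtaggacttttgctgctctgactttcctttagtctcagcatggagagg

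Of the 8 canalicular exporters, 3 rose with the combined exposure (Abcb1a, Abcc2 and Abcg2) and 0 fell, with a median log2FC of −0.00011. Abcb1a, which encodes 1 of the mouse P-glycoproteins that pump drugs out of the cell (ENSMUSG00000040584; chromosome 5, 8660077 to 8748575, plus strand), was counted at 5.04, 4.65, 3.89, 2.32 and 1.81 CPM in the control mice and 10.7, 7.79, 3.84, 5.98 and 6.27 CPM in the Aroclor mice. It was at 10.9, 4.90, 4.97, 2.86 and 6.79 CPM with PCB 126 and at 14.9, 9.92, 8.22, 12.5 and 9.97 CPM with the combined exposure, where each mouse was above every control mouse. The log2FC was 1.63 (SE 0.33, adjusted p = 0.00164), the largest of the called transporters, or 3.09-fold. With Aroclor alone it was 0.95 (adjusted p = 0.203) and with PCB 126 alone 0.77 (adjusted p = 0.288), and neither passed. The call with the combined exposure was kept in all 10 fits that left out 1 mouse, after GC correction (1.30, SE 0.31, adjusted p = 0.0157) and without the adrenal-marked libraries (1.45, adjusted p = 0.00561). With both changes together it was 1.13 (adjusted p = 0.0577), which did not pass, and with a covariate for the GC slope it was 1.14 (adjusted p = 0.426), which did not pass either. Abcb1a shares 16.3% of the 50-base words of its transcripts with Abcb1b, so reads of the 2 genes could be split or dropped in counting. The RefSeq start of Abcb1a lies 92986 bases before the GENCODE start, so its promoter is not shown.

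Abcc2, the pump of glutathione and glucuronide conjugates, was at 553, 592, 498, 460.2 and 552 CPM in HFD control against 723, 846, 711, 757 and 885 CPM with the combined exposure, without overlap. With the single exposures its values reached 811 CPM (Aroclor) and 777 CPM (PCB 126), within the range of the combined exposure. Its log2FC was 0.56 (SE 0.15, adjusted p = 0.00656) with the combined exposure and 0.21 (adjusted p = 0.326) after GC correction. Abcg2, the breast cancer resistance protein, was at 172, 199, 245, 212 and 247 CPM in HFD control against 284, 354, 255, 259 and 303 CPM with the combined exposure, again without overlap. Its log2FC of 0.44 (SE 0.11, adjusted p = 0.00586) became −0.048 (adjusted p = 0.835) after GC correction.

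Abcb11, which exports bile salts (ENSMUSG00000027048; chromosome 2, 69238282 to 69342616, minus strand), was counted at 371, 386, 399, 444 and 492 CPM in HFD control and 442, 352, 355, 399 and 492 CPM with Aroclor. It was at 375, 337, 296, 307 and 301 CPM with PCB 126 and 349, 396, 343, 289 and 354 CPM with the combined exposure. All PCB 126 mice but replicate 1 were below every control mouse, and the combined mice overlapped the controls through replicate 2. With PCB 126 the log2FC was −0.37 (SE 0.11, adjusted p = 0.152) in edgeR and −0.38 (adjusted p = 0.0298) in DESeq2, and −0.43 (adjusted p = 0.0635) in edgeR after GC correction. With the combined exposure it was −0.27 (SE 0.11, adjusted p = 0.0669) in edgeR without correction, −0.29 (adjusted p = 0.0218) in DESeq2 and −0.55 (adjusted p = 0.00419) in edgeR after GC correction. Leaving out combined exposure replicate 2 brought the uncorrected value past the threshold (−0.33, adjusted p = 0.0442). With GC correction and without the adrenal-marked libraries, Abcb11 was the 1 transporter that passed, at −0.49 (adjusted p = 0.0162). Without those libraries and without GC correction it was −0.21 (adjusted p = 0.200), which did not pass. With a covariate for the GC slope it was −0.48 (adjusted p = 0.234), which did not pass either.

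Abcb4, the phosphatidylcholine floppase of bile, was at 329.9, 346, 422, 524 and 546 CPM in HFD control against 375, 428, 369, 305 and 382 CPM with the combined exposure. These groups overlapped, and the log2FC was −0.22 (SE 0.15, adjusted p = 0.276). It passed after GC correction, at −0.57 (adjusted p = 0.0194), but not when the adrenal-marked libraries were left out as well (−0.45, adjusted p = 0.0855). The sterol half-transporters Abcg5 and Abcg8 had a log2FC of −0.0081 (adjusted p = 0.984) and −0.22 (adjusted p = 0.434). Their annotated spans overlap each other, which leaves their counts uncertain unless strand was used.

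The starts of Abcb11, Abcb4 and Abcc2 are shown because these 3 exporters carry the bile salt, phospholipid and conjugate results above (RefSeq, GRCm38.p6, 250 bases before to 50 after the start). Their windows are chr2:69342567-69342866, minus strand, chr5:8893471-8893770, plus strand, and chr19:43782058-43782357, plus strand. Capitals mark GCGTG, TGACNNNGC or AGGTCA on either strand.
Abcb11: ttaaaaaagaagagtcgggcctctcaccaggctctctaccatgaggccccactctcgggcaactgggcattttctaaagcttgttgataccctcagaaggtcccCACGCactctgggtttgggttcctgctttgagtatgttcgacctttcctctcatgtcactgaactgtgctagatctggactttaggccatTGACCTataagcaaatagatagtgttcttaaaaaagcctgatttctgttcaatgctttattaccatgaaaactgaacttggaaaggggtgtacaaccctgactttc
Abcb4: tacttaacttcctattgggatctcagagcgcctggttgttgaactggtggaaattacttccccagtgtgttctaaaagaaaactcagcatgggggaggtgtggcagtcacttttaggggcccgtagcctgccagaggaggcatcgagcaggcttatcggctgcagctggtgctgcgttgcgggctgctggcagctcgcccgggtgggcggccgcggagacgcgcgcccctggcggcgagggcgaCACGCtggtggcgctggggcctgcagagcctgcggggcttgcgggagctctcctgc
Abcc2: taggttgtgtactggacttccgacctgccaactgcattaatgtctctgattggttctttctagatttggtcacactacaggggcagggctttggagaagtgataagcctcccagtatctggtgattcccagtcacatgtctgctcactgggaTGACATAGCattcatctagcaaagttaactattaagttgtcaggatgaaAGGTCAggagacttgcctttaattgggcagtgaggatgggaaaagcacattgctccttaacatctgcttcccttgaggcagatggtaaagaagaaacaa

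Abcb11 held GCGTG on the reverse strand at −146 to −142 from the start and AGGTCA on the reverse strand at −56 to −51. Abcb4 held GCGTG on the reverse strand at −6 to −2. Abcc2 held TGACNNNGC at −98 to −90 and AGGTCA at −49 to −44, both on the forward strand. RefSeq gave 56 promoters for 46 of the 60 transporters, and the RefSeq start was within 500 bases of the GENCODE start for 41 of these 46. GCGTG was in 25% of the 56 windows against 32.4% of all 32851 promoters, TGACNNNGC in 14.3% against 12.4%, and AGGTCA in 23.2% against 16.3%. These matches describe letters in a window and were not tested as sites.

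**Figure D3:**
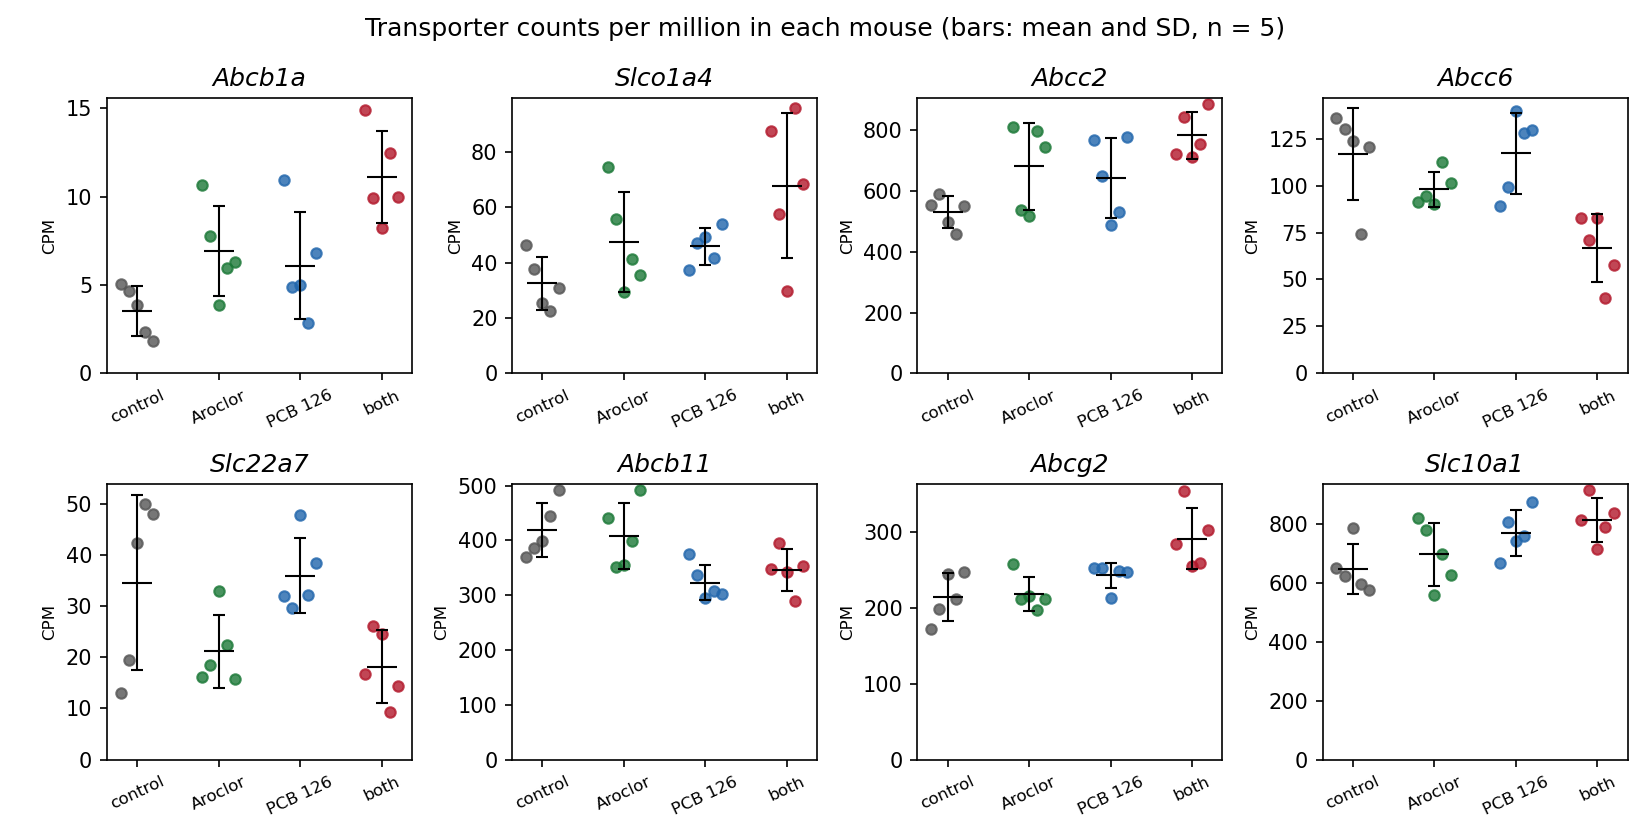
CPM of 8 transporters in each mouse (points) with the mean and SD of the 5 mice of a group (bars), on axes that start at 0. All combined-exposure mice lie above all HFD control mice for Abcb1a, Abcc2 and Abcg2, while 1 control mouse lies among the combined-exposure mice for Abcc6 and the 2 low control mice do so for Slc22a7.

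Of the 4 basolateral exporters, 1 fell with the combined exposure and 0 rose, with a median log2FC of 0.0073. Abcc6, the pump whose loss causes pseudoxanthoma elasticum (ENSMUSG00000030834; chromosome 7, 45967555 to 46030302, minus strand), was at 136, 130.4, 124, 74.0 and 120.4 CPM in HFD control, 91.0, 94.3, 90.1, 113 and 102 CPM with Aroclor and 89.4, 99.2, 139.9, 128 and 129.6 CPM with PCB 126. With the combined exposure it was at 83.04, 70.8, 82.8, 40.1 and 57.7 CPM. These mice were below every Aroclor and every PCB 126 mouse, and below every control mouse but replicate 4, whose library held adrenal transcripts. The log2FC was −0.81 (SE 0.18, adjusted p = 0.00312), and −0.81 (adjusted p = 0.00121) without the adrenal-marked libraries. All 10 fits that left out 1 mouse kept the call, and after GC correction it was −0.23 (adjusted p = 0.186). Abcc3 had a log2FC of 0.047 (adjusted p = 0.814) and Abcc1 one of −0.032 (adjusted p = 0.936). Abcc4, a pump of cyclic nucleotides and bile salts, was at 2.27, 3.02, 2.90, 3.77 and 1.55 CPM in HFD control and 4.66, 3.19, 2.41, 6.29 and 3.78 CPM with the combined exposure, highest in both groups in replicate 4, and its log2FC was 0.59 (SE 0.28, adjusted p = 0.114).

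Among 4 transporters of mitochondria and lysosomes, 0 rose and 2 fell in edgeR and in DESeq2 3 fell, with a median log2FC of −0.45. Those that fell in edgeR were Abcb8, of the mitochondrial potassium channel, with a transcript GC content of 56.5%, and Abcb9, the lysosomal peptide transporter, with 58.7%. Abcb8 was at 30.4, 25.3, 30.7, 18.8 and 21.9 CPM in HFD control against 21.6, 18.02, 19.8, 11.2 and 12.97 CPM with the combined exposure. The 2 groups overlapped through HFD control replicate 4. Abcb8 had a log2FC of −0.61 (SE 0.16, adjusted p = 0.00849), which GC correction brought to −0.15 (adjusted p = 0.443). Abcb9 had −0.70 (SE 0.24, adjusted p = 0.0313), which GC correction brought to −0.048 (adjusted p = 0.935), and its uncorrected call was lost without HFD control replicates 1, 2 or 3 or combined exposure replicates 2 or 4 (log2FC −0.67 to −0.49, adjusted p = 0.0600 to 0.127). Abcb6, the porphyrin transporter, had −0.29 (adjusted p = 0.0601) and passed without the adrenal-marked libraries (−0.30, adjusted p = 0.0216). Leaving out HFD control replicate 4 alone gave −0.37 (adjusted p = 0.0129) and combined exposure replicate 1 alone −0.34 (adjusted p = 0.0407). Abcb6 shares 50% of its 50-base words with the transcript annotated as Gm29253. Abcb10, of the haem pathway, had 0.15 (adjusted p = 0.236), passed after GC correction at 0.39 (adjusted p = 0.0239) and overlaps Gm20388.

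**Figure D4:**
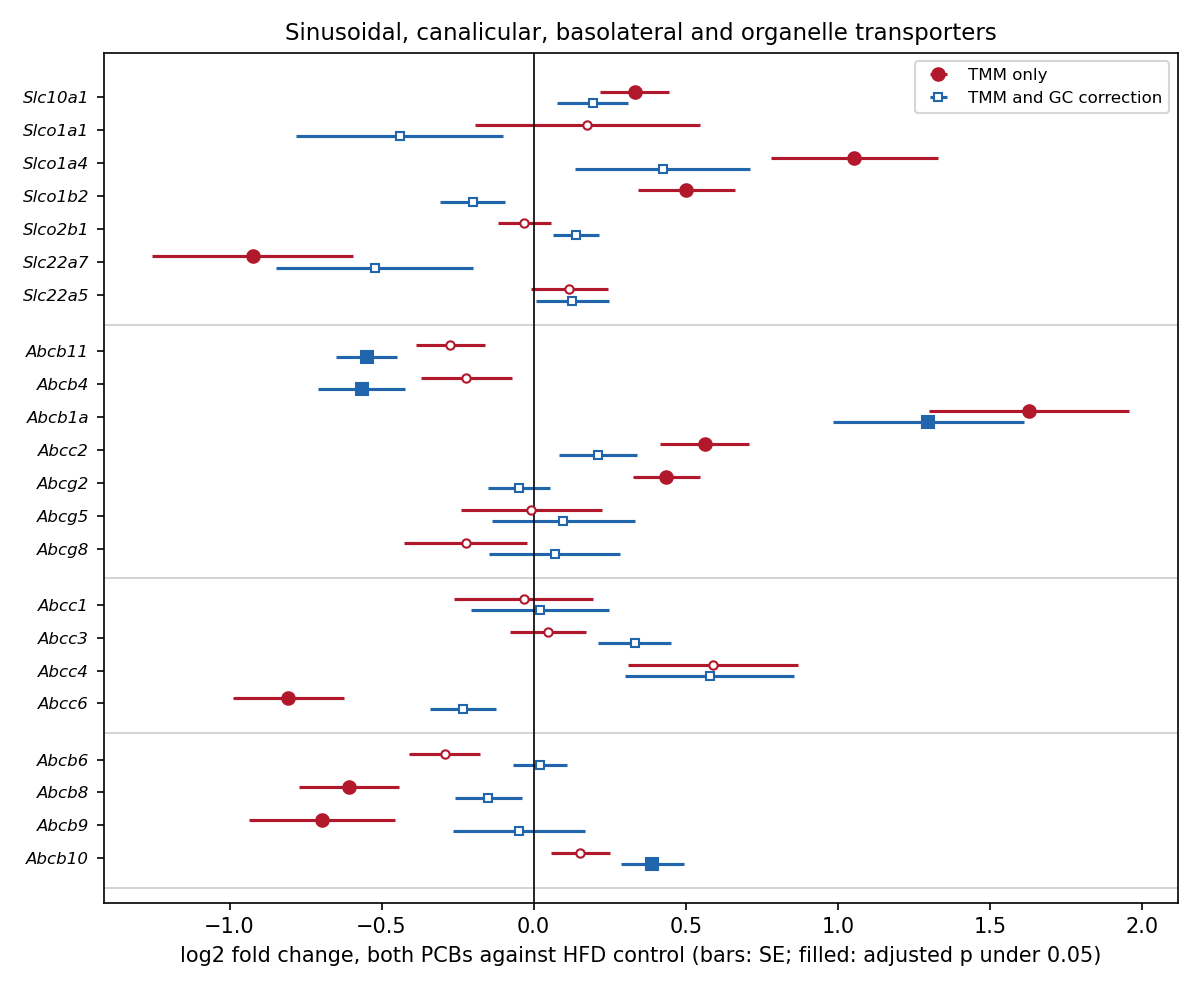
Log2FC of the combined exposure against HFD control with its SE for 22 transporters in the order sinusoidal uptake, canalicular export, basolateral export, and mitochondria and lysosomes, without (circles) and with (squares) GC correction. Filled symbols passed an adjusted p of 0.05. Abcb1a is filled in both fits, and Abcb1b is left out because 2 libraries decide its value.

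The other 37 transporters gave 5 calls higher and 3 lower with the combined exposure. Slc22a26, of the organic anion carrier family, was low, at 1.80, 1.54, 0.801, 0.395 and 0.903 CPM in HFD control and 5.28, 1.70, 1.71, 2.80 and 2.38 CPM with the combined exposure. Its log2FC was 1.31 (SE 0.47, adjusted p = 0.0371), and it did not pass without HFD control replicates 3, 4 or 5 or combined exposure replicates 1, 4 or 5 (log2FC 0.95 to 1.37, adjusted p = 0.0527 to 0.133), without both adrenal-marked libraries (log2FC 1.08, adjusted p = 0.0974) or after GC correction (log2FC 0.83, adjusted p = 0.282). Slc10a5, an orphan of the bile salt carrier family, was at 7.29, 10.2, 24.6, 27.4 and 24.9 CPM and 43.0, 44.9, 34.8, 27.3 and 37.9 CPM in the same groups. The log2FC of Slc10a5 was 0.998 (SE 0.36, adjusted p = 0.0409), which GC correction brought to 0.66 (adjusted p = 0.218). Its uncorrected call was lost without HFD control replicates 1 or 2 or combined exposure replicates 1, 2, 3 or 5 (log2FC 0.79 to 1.01, adjusted p = 0.0531 to 0.109), and its span overlaps Gm38303.

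Abcc10, a lipophilic drug pump, was at 12.1, 10.2, 5.38, 5.75 and 9.76 CPM in HFD control and 3.83, 6.13, 4.41, 2.98 and 4.34 CPM with the combined exposure. It had the largest fall among the called transporters, a log2FC of −1.002 (SE 0.27, adjusted p = 0.00726), against −0.33 (adjusted p = 0.337) after GC correction, and its span overlaps Dlk2. Slc22a18, an organic cation transporter-like gene of an imprinted region, was at 147, 138, 137, 74.9 and 114 CPM and 96.0, 73.9, 96.0, 44.5 and 66.2 CPM, a log2FC of −0.70 (SE 0.18, adjusted p = 0.00656), or −0.18 (adjusted p = 0.372) after GC correction. Both calls were kept in all 10 fits that left out 1 mouse.

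Abcc9 and Slc22a30, named after their values were seen, were also called. Abcc9, the sulfonylurea receptor subunit of vessels, had a log2FC of 0.55 (SE 0.15, adjusted p = 0.00718), which GC correction brought to 0.31 (adjusted p = 0.169). With the combined exposure, where 32.8% of all genes were called, 3 of 5 stellate cell markers (Lrat, Reln, Dcn, Col1a1 and Des) rose and 1 fell. None of the 5 was at 0. Their summed level, not corrected for GC content, was 121 to 233 CPM in HFD control and 255 to 317 CPM with the combined exposure. Most of it was Dcn, at 79.5 to 156 CPM and 169 to 225 CPM in these groups. After GC correction Lrat was at 0.35 (adjusted p = 0.398), Reln at 0.36 (adjusted p = 0.135), Dcn at 0.0012 (adjusted p = 0.999) and Des at −1.06 (adjusted p = 0.0638), and none of the 5 passed. The part of these cells in the Abcc9 value was not tested. Slc22a30 had a log2FC of 0.44 (SE 0.11, adjusted p = 0.00553), turned in sign after GC correction (−0.12, adjusted p = 0.486) and shares 31% of its 50-base words with Slc22a28. Slc22a4, the ergothioneine carrier, passed in edgeR after the correction, at 0.64 (adjusted p = 0.0466), and without it had 0.52 (adjusted p = 0.0564), which passed without HFD control replicate 1 (0.62, adjusted p = 0.0417) or replicate 2 (0.64, adjusted p = 0.0267). Among the markers of other cell types, Ttr and Apoa1 (hepatocyte) and Stab2 (endothelial) fell and Adgre1 (Kupffer cell) rose without GC correction. With it Ttr and Stab2 passed, while Apoa1 was at −0.38 (adjusted p = 0.145) and Adgre1 at 0.63 (adjusted p = 0.139). The ranges of the summed lists overlapped: the endothelial level was 82.9 to 170.1 CPM in HFD control and 115 to 139 CPM with the combined exposure, the Kupffer cell level 167 to 392 CPM and 225 to 304 CPM, and the cholangiocyte level 66.0 to 74.5 CPM and 62.9 to 130.0 CPM. Most of the cholangiocyte level was Spp1, at 61.0 to 67.3 CPM in HFD control and 59.7 to 122 CPM with the combined exposure.

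The combined exposure was also set against each single exposure. Against Aroclor, 0 of 60 transporters passed in edgeR, where 0.412% of all genes did, and 12 had an unadjusted p under 0.05. DESeq2 called 6, against 12.6% of all genes to which it gave an adjusted p, and it gave none to 16 of the 60. Of the 6, Abcg2, Slc22a30 and Slc22a28 were higher and Abcb8, Abcb9 and Abcc6 were lower, with log2FC from −0.73 to 0.71. Slc22a28 shares 53.3% of its 50-base words with Slc22a30, so reads of the 2 genes could be split or dropped in counting. Against PCB 126, 10 of 60 passed in edgeR against 16.7% of all genes. Of the 10, 3 were higher, among them Abcc4 (0.97) and Slc22a30 (0.51). The 7 that were lower were Slc22a7 (−0.99), Abcc10 (−0.90), Abcc6 (−0.81), Abcb9 (−0.75), Abcb8 (−0.71), Slc22a18 (−0.60) and Slco2b1 (−0.27). In 10 fits that each left out 1 mouse, Abcb9 kept its call in 1, Slco2b1 in 3, Slc22a7 in 4 and Slc22a18 in 5. Abcc10 and Abcc4 kept it in 6, Abcb8 in 7, Abcc6 in 8 and Slc22a30 in 9. Slco2b1 was at 204, 220.5, 235, 205 and 226 CPM with PCB 126 and 204, 181, 186, 158 and 176 CPM with the combined exposure, whose highest mouse lay just under the lowest PCB 126 mouse. After GC correction 0 of the 60 passed against PCB 126 in edgeR, with 10 at an unadjusted p under 0.05. The count also fell to 0 without PCB 126 replicate 3, to 2 without PCB 126 replicate 4, to 6, 3 and 1 without combined exposure replicates 2, 4 and 5, and to 5 of 58 without the adrenal-marked libraries. The shares over all genes in these fits are not given.

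Abcb1b, the other P-glycoprotein gene, is known for its level in the adrenal gland, and followed the adrenal transcripts. It was at 1.91, 1.40, 3.70, 61.8 and 3.22 CPM in HFD control, 2.36, 1.63, 3.41, 3.66 and 2.83 CPM with Aroclor, 2.89, 2.03, 2.45, 0.996 and 2.88 CPM with PCB 126 and 1.89, 3.24, 2.38, 61.6 and 2.41 CPM with the combined exposure. Replicate 4 of HFD control and of the combined exposure, the libraries with adrenal transcripts, were thus at 61.8 and 61.6 CPM and the other 18 between 0.996 and 3.70 CPM. Over all mice the log2FC with the combined exposure was 0.0079 (adjusted p = 0.996), and without both libraries it was −0.047 (adjusted p = 0.931). Without HFD control replicate 4 alone it was 2.50 (adjusted p = 0.0252) and without combined exposure replicate 4 alone −2.58 (adjusted p = 0.0323). Of the 60 transporters, Abcg4 and Slc10a4, named after their values were seen, were also over 3 times higher in both libraries than in any other. An excess among the transporters, 3 of 60 with Abcb1b, was not tested. Of the 15522 genes tested, 472 were over 3 times higher by the same rule in both of these libraries. Slc10a4 was at 0.833 and 0.873 CPM there and had 0 counts in the other 18 libraries, and Abcg4 was at 1.54 and 0.727 CPM there and at most at 0.0763 CPM elsewhere.

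The RefSeq start of Abcb1b (GRCm38.p6, chr5:8797897-8798196, plus strand, 250 bases before to 50 after the start) is shown because 2 libraries decide its level. It held none of the 3 motifs and so has no capitals.
Abcb1b: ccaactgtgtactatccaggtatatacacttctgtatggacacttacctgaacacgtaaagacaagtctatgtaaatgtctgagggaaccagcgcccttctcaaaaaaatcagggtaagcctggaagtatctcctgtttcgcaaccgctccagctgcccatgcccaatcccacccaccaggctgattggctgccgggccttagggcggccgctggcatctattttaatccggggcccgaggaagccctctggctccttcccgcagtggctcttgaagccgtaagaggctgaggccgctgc

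**Figure D5:**
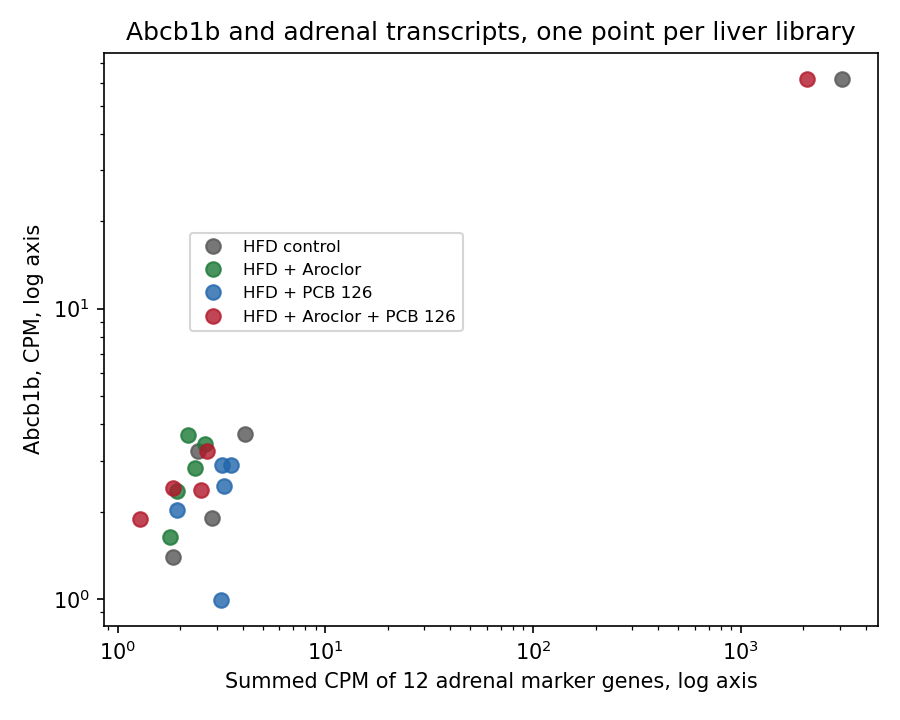
Abcb1b in CPM (vertical log axis) against the summed CPM of 12 adrenal marker genes (horizontal log axis), with a point for each of the 20 libraries, coloured by group. HFD control replicate 4 and combined exposure replicate 4 lie at the upper right, at 61.8 and 61.6 CPM, and the other 18 lie at the lower left.

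Genes that act with the transporters were taken from lists. Of 7 transport partners (Slc51a, Slc51b, Atp8b1, Tmem30a, Slc47a1, Pdzk1 and Rdx), 2 rose and 0 fell with the combined exposure, where 32.8% of all genes were called. The 2 were Tmem30a, the subunit of the canalicular flippases, with a log2FC of 0.59 (adjusted p = 0.0106), and Rdx, the radixin that anchors Abcc2 in the canaliculus, with 0.59 (adjusted p = 0.00572). GC correction brought Tmem30a to 0.13 (adjusted p = 0.565) and Rdx to 0.17 (adjusted p = 0.346), and 0 of the 7 passed in edgeR, with 1 at an unadjusted p under 0.05. Of 8 regulators (Nr1h4, Nr0b2, Nr1i2, Nr1i3, Ahr, Nfe2l2, Hnf4a and Ppara), 1 rose and 0 fell. The bile salt receptor Nr1h4 (FXR) rose by 0.30 (adjusted p = 0.0275), against 0.056 (adjusted p = 0.825) after GC correction. After the correction 1 regulator passed, Nr1i3 (CAR), at 0.71 (adjusted p = 0.0402). Nr1i2 (PXR) had 0.094 (adjusted p = 0.613) without correction and Ahr 0.65 (adjusted p = 0.0674).

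The exposure markers were measured in the same livers. Cyp1a1, the classic AhR target, was at 0.940, 0.799, 0.458, 0.219 and 0.645 CPM in HFD control and 4.09, 7.80, 4.602, 314 and 62.1 CPM with PCB 126, where every mouse was above every control. With the combined exposure it was at 0.792, 1.19, 0.875, 1.13 and 2.62 CPM. Its log2FC was 6.93 (adjusted p = 0.00950) with PCB 126 and 1.06 (adjusted p = 0.502) with the combined exposure. Cyp1a2 rose by 2.04 (adjusted p = 0.000294) with PCB 126 and by 1.003 (adjusted p = 0.00325) with the combined exposure. Cyp3a11, a PXR target, rose by 0.89 (adjusted p = 0.00652) with the combined exposure and was at 0.32 (adjusted p = 0.464) after GC correction, while Cyp2b10, a CAR target, had 1.72 (adjusted p = 0.0830). Of the 4 markers, 2 passed with PCB 126, 2 with the combined exposure and 0 with Aroclor in edgeR, where 1 had an unadjusted p under 0.05.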

How the data were processed

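Liver RNA of 20 mice was analysed. The authors prepared stranded libraries of polyadenylated RNA, sequenced them in 2 runs, checked reads with FastQC 0.10.1, used STAR 2.6 for alignment to GRCm38.p6 and HTSeq 0.10.0 for counting, and deposited 1 table of raw counts. The annotation release and strand setting of the counting are not given in the sources used here, and genes that overlap or share sequence are therefore uncertain. The label of PCB 126 replicate 2 carries another number in its bracket, and the title was followed.

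From the deposited counts, rows totalling 10 counts or more were kept (15522 of 21780), normalized with TMM and fitted with 1 coefficient per group in edgeR 4.0.16 (R 4.3.3, quasi-likelihood test, 16 residual degrees of freedom). The p-values were adjusted by the Benjamini-Hochberg method over all of these genes. SE is the log2FC divided by the root of the F statistic. Total counts were 21836506 to 36854887 per library. No pair of libraries of a group agreed within sampling noise (over 40 pairs, chi-square divided by its degrees of freedom was at least 18.7). GC content, exon length and positions are from GENCODE M21, which gave a symbol to 21754 of the rows, and promoters are from RefSeq. For GC correction, a spline of 6 degrees of freedom over transcript GC content was fitted to the deviation of log2 CPM from the gene mean in each library, over genes of at least 1 CPM, and entered as an offset. The fits were tested on simulated counts.

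The alternatives were RLE size factors, DESeq2 1.42.0, no filter, filterByExpr, an FPKM filter, the compared groups alone, the replicate block, GC correction with and without the block, the GC slope as a covariate, and each mouse left out. Fits without the adrenal-marked libraries and the adrenal and skeletal muscle lists were added after seeing the data. Genes named with values are transporters of known hepatic role, any that passed with a single exposure or in the interaction, and, with the combined exposure, the 5 called transporters with at least 1 CPM that rose most and the 5 that fell most. Abcc9, Slc22a30, Slc22a4, Slc22a28, Abcg4 and Slc10a4 are outside this rule and were named after their values were seen. Some genes under this rule are not reported here, and the lists by role and of regulators leave them out. The members and lists were chosen with earlier results of these data known. Of 5 lymphocyte markers 4 were measured, at a summed 1.23 to 6.13 CPM in the libraries.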

Additional observations from a re-analysis of the deposited data

Results flagged for a closer look

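In 120 groups of 5 mice (30 of the transporters named with values, in 4 groups), 8 held a mouse whose gap to the nearest other mouse, divided by the range of the group, was above Dixon's critical value of 0.71. Abcg4 and Slc10a4, which were high in both adrenal-marked libraries, were not among the 30. Chance flags about 1 in 20 groups.

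Replicate 4 of HFD control and of the combined exposure, the libraries with adrenal transcripts, accounted for 3 of the 8. Abcb1b was at 61.8 CPM in HFD control replicate 4 against 1.40 to 3.70 CPM in the other control mice, and at 61.6 CPM in combined exposure replicate 4 against 1.89 to 3.24 CPM. Abcc6 was at 74.0 CPM in HFD control replicate 4 against 120.4 to 136 CPM in the other control mice.

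PCB 126 replicate 3 was low for Abcb10, at 26.7 CPM against 31.8 to 33.2 CPM in the other mice of its group, and for Abcg2, at 213 CPM against 247 to 253 CPM. Abcc9 was low in Aroclor replicate 3, at 20.3 CPM against 27.7 to 30.6 CPM, and in combined exposure replicate 3, at 24.5 CPM against 32.5 to 34.3 CPM. Slc22a4 was high in Aroclor replicate 1, at 6.82 CPM against 3.62 to 4.48 CPM.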

How the results depend on the processing

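The counts of transporters past the threshold changed as follows. With the combined exposure against HFD control, 18 became 5 with GC correction, 5 with GC correction and the replicate block, 3 with the GC slope as a covariate and 1 with GC correction without the adrenal-marked libraries, and 13 to 17 when 1 mouse was left out. The 3 with the slope covariate were Abcb1b, Abcg4 and Slc10a4, all lower and none of them among the 18. These are the 3 transporters over 3 times higher in both adrenal-marked libraries than in any other. For Aroclor 0 became 3 with the slope covariate, and these were again Abcb1b, Abcg4 and Slc10a4, all lower. For PCB 126 0 became 1 with DESeq2 and 4 with the slope covariate. Of these 4, Abcg4, Slc10a4 and Abcb11 were lower and Slco2b1 was higher. Against Aroclor, the 0 for the combined exposure became 6 with DESeq2, 2 of 50 still tested with filterByExpr and 3 of 35 with the FPKM filter. It became 2 with the replicate block and 0 to 2 when 1 mouse was left out. Against PCB 126, the 10 became 0 with GC correction, with or without the block and with or without the adrenal-marked libraries, 0 with the slope covariate, 5 without the adrenal-marked libraries and 0 to 14 when 1 mouse was left out. The interaction stayed at 0 in every fit. Where no share over all genes is given above for a fit, no excess among the transporters can be read from its count. The cause of these changes was not tested.

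Signs of log2FC with the combined exposure turned as follows. With GC correction they were Slco1a1 −0.44, Slco1b2 −0.20, Slco2b1 0.14, Abcb1b −0.26, Abcg2 −0.048, Abcg5 0.10, Abcg8 0.070, Abcc1 0.021, Abcb6 0.019 and Slc22a30 −0.12. With the replicate block as well they were Slco1a1 −0.39, Slco1b2 −0.20, Slco2b1 0.14, Abcb1b −0.26, Abcg2 −0.049, Abcg5 0.12, Abcg8 0.057, Abcc1 0.016, Abcb6 0.023 and Slc22a30 −0.12. Without the adrenal-marked libraries and with GC correction they were Slco1a1 −0.19, Slco1b2 −0.19, Slco2b1 0.11, Abcb1b −0.36, Abcg2 −0.037, Abcb6 0.011 and Slc22a30 −0.12. With the slope covariate they were Slco1a1 −0.66, Slco1b2 −0.14, Slco2b1 0.21, Slc22a5 −0.16, Abcb1b −4.63, Abcc4 −0.41, Abcc6 0.12, Abcb6 0.14, Abcb8 0.15, Slc10a5 −0.30, Abcc10 0.22 and Slc22a18 0.24, and against PCB 126 Abcc10 0.071 and Slc22a18 0.11. Abcb1b also turned with RLE size factors (−0.0080), DESeq2 (−0.025), the compared groups alone (−0.010) and without the adrenal-marked libraries (−0.047). Abcg5 turned with the FPKM filter (0.010) and the replicate block (0.020). When 1 mouse was left out, the values that turned ranged for Slco1a1 from −0.11 to 0.36, for Slco2b1 from −0.088 to 0.020, for Abcb1b from −2.58 to 2.50, for Abcg5 from −0.15 to 0.13, for Abcc1 from −0.29 to 0.16 and for Abcc3 from −0.048 to 0.092.

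The replicate numbers were not taken to pair the samples: the deviations of mice with the same number correlated with r from −0.26 to 0.74 (median 0.050), above 0.1 in 13 of 30 pairs, and 10 of 20 mice correlated best with their own number, while mice with different numbers in different groups had a median r of −0.012 and were above 0.1 in 35 of 120 pairs. No label or method ties the numbers to a litter, day or batch, so this is a hint from the data alone. With the replicate block the combined exposure gave 22 calls against HFD control and 14 against PCB 126. The share over all genes with the block is not given, so no gain among the transporters can be read from these counts. The 14 transporters under 1 CPM rest on few counts.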
